A study of Mus musculus with 14 samples.

Results

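The 8 genes described here mark oligodendrocyte precursor cells and the first steps of their differentiation. They are Pdgfra, Cspg4, Olig1, Olig2, Sox10, Lhfpl3, Gpr17 and Bcas1, and their rows were taken by gene symbol from the 55291 rows of the count tables. All 8 were found and all 8 passed the expression filter that kept 22150 genes. They were read in dentate gyri cut out of mouse entorhino-hippocampal slice cultures, 8 from APPko mice (APP-/-, a published line that lacks the amyloid precursor protein) and 6 from C57BL/6J wildtype mice (APP+/+). Animals were 4 to 5 days old when the cultures were prepared, which then stayed for 18 days or longer in medium with horse serum, and each library held the polyadenylated RNA of 1 dentate gyrus. Replicates are named biological in the sample titles, but it is not stated whether any came from 1 animal, and p-values measure the spread between these cultures.

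Oligodendrocyte precursors divide in response to platelet-derived growth factor, which they bind through the receptor encoded by Pdgfra, and they spread through the hippocampus in the first postnatal weeks. The transcription factors Olig2 and Sox10 set up and maintain the lineage, and Olig1 acts with them when cells mature. Cells that leave the precursor state pass through a committed stage marked by Gpr17 and a premyelinating stage marked by Bcas1 before they make myelin. Several of these genes are not exclusive to precursors: Olig1, Olig2 and Sox10 stay on in mature oligodendrocytes, Pdgfra is also found in fibroblasts and Cspg4 also in pericytes.

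Total counts ran from 20298058 to 31031126 in APPko libraries and from 16686909 to 29713323 in wildtype libraries. App fell 3.78-fold (214 ± 17.9 CPM in APPko, SD, n = 8, against 809 ± 131 CPM in wildtype, SD, n = 6), and the genotypes did not overlap. CPM are counts relative to the TMM-scaled library total. Wildtype libraries 2 and 3 stood apart from the rest, their TMM scaling factors being 0.852 and 0.847 while those of the other 12 began at 0.976. Column headers end in f or m. 7 APPko and 3 wildtype libraries carried f, and 1 APPko library (number 8) and 3 wildtype libraries carried m. The suffix is read here only as a label.

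4 of the 8 genes had a promoter in the RefSeq table for GRCm38.p6, and 3 are shown: Lhfpl3 and Pdgfra, which varied together over the libraries, and Olig2, which lies in the DNA that flanks App. Each is written 5′ to 3′ and ends before the start given by RefSeq or by the deposited annotation, whichever came first. Capitals mark CAGCTG, the E-box form bound by bHLH factors such as Olig2.
Lhfpl3 (chr5:22745804-22746053, + strand): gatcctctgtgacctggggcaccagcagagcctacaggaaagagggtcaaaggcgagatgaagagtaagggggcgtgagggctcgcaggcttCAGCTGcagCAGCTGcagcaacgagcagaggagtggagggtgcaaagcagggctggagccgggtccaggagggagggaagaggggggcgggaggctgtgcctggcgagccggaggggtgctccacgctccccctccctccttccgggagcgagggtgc
Pdgfra (chr5:75152001-75152250, + strand): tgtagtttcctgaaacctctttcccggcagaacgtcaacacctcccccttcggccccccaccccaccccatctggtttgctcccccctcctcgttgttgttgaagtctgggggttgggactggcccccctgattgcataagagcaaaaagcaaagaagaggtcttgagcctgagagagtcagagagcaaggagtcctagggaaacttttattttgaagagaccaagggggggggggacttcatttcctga
Olig2 (chr16:91225300-91225456, + strand): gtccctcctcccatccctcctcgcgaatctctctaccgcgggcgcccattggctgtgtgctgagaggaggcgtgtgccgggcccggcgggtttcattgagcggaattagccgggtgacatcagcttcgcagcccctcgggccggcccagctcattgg
CAGCTG reads the same on both strands. It occurred 2 times in the 250 bases before the RefSeq start of Lhfpl3 and not in the windows of Pdgfra, Olig2 and Cspg4. Of 32851 promoters searched the same way, 13.0% held it. ACAAAG, a core recognised by Sox factors, was searched on both strands and occurred in none of the 4 windows and in 16.5% of all promoters. These matches describe letters only.

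All 8 genes were counted in every library, from 40 to 150 counts for Gpr17 up to 598 to 1371 for Olig1. Levels can be compared between genes only per length, so CPM were divided by exon length in kilobases (FPKM). The length is that of all annotated exons of a gene joined, from 2162 bases in Olig1 to 11931 in Cspg4. Transcripts in use can be shorter, so the order of genes can depend on this choice. Olig1 had the highest level, 17.8 ± 4.39 FPKM (SD, n = 14), and exceeded Olig2, at 8.11 ± 1.74 FPKM, in 14 of 14 libraries. Lhfpl3 lay at 7.14 ± 1.53 FPKM, and the log2 ratio of Olig2 to Lhfpl3 was 0.19 ± 0.39 (SD, n = 14). Olig2 was the higher in 8 of 8 APPko libraries (mean 8.05 against 6.28 FPKM) and in 3 of 6 wildtype libraries (mean 8.20 against 8.28 FPKM). Bcas1 followed at 4.94 ± 1.84 FPKM. Pdgfra (2.45 ± 0.55 FPKM) and Sox10 (2.36 ± 0.61 FPKM) were not separated, with a log2 ratio of 0.07 ± 0.60 (SD, n = 14). Pdgfra was the higher in 2 of 8 APPko and 3 of 6 wildtype libraries, and averaged 2.29 FPKM in APPko and 2.66 FPKM in wildtype, where Sox10 averaged 2.54 and 2.13 FPKM. Gpr17 lay at 0.77 ± 0.27 FPKM and Cspg4, the lowest, at 0.38 ± 0.09 FPKM. For scale, the granule cell gene Prox1 averaged 18.4 FPKM over the 14 libraries.

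The comparison of APPko with wildtype asks whether the loss of App changes the RNA of this lineage. None of the 8 genes passed edgeR's quasi-likelihood test at an adjusted p of 0.05, where 2.35% of all tested genes did (0.944% higher and 1.41% lower in APPko). In none of the 8 were the CPM ranges of the genotypes apart, against 1.12% of all tested genes. 2 of the 8, Lhfpl3 and Bcas1, had an unadjusted p under 0.05, against 20.4% of all tested genes. DESeq2 and limma's voom also called none, where DESeq2 called 8.13% of all tested genes and voom 355 of 22150. 6 of the 8 log2 changes were negative and 2 positive, with a median of -0.10 beside -0.01 over all tested genes. In a whole dentate gyrus, fewer cells of a type and less RNA per cell cannot be told apart.

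**Figure D1:**
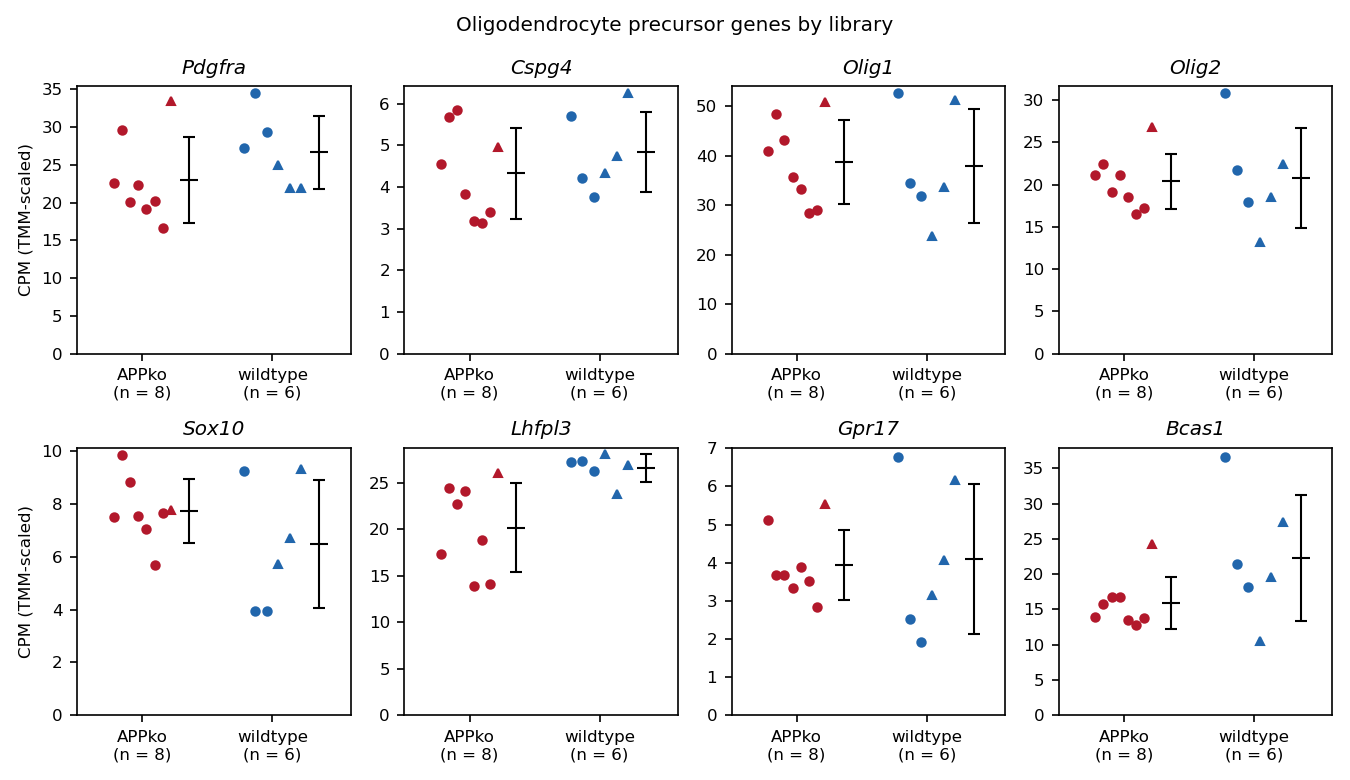
TMM-scaled CPM (y axes, starting at 0) of the 8 genes in each library, APPko left and wildtype right; circles are f libraries, triangles m libraries, and bars are mean ± SD (n = 8 and 6). Every gene overlaps between genotypes, and Lhfpl3 shows wildtype libraries packed between 23.8 and 28.1 CPM with 5 APPko libraries below all of them.

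Among the receptor and membrane genes, Lhfpl3, which encodes a tetraspan membrane protein enriched in precursors, had the lowest p. It ranged in APPko from 13.9 to 26.0 CPM with a median of 20.8 CPM, and in wildtype from 23.8 to 28.1 CPM with a median of 27.1 CPM. All 8 APPko libraries lay below the wildtype median and 5 below every wildtype library. The log2 change was -0.40 (SE 0.14, 95% interval -0.69 to -0.10, a 1.32-fold lower level), with an unadjusted edgeR p of 0.0105 and an adjusted p of 0.12. With the GC trend removed it was -0.28 (edgeR adjusted p = 0.33), and without wildtype libraries 2 and 3 it was -0.39 (edgeR adjusted p = 0.35). The spread of Lhfpl3 differed as well: the SD was 23.7% of the mean in APPko and 5.55% in wildtype. 17.6% of its exon length is shared with A930003O13Rik, a long noncoding RNA on the opposite strand that averaged 1.58 ± 0.25 CPM in APPko and 2.20 ± 0.53 CPM in wildtype (SD, n = 8 and 6), and the strand setting of the counting is not given in the sources used here.

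Pdgfra, the growth factor receptor that defines the precursor pool, ran in APPko from 16.6 to 33.5 CPM around a median of 21.3 CPM and in wildtype from 21.9 to 34.5 CPM around a median of 26.1 CPM. 4 APPko libraries lay below every wildtype library, and APPko library 8, at 33.5 CPM, was near the top of the wildtype range. The log2 change of -0.21 (SE 0.15, 95% interval -0.53 to 0.11) did not pass (edgeR adjusted p = 0.47). It was -0.05 without wildtype libraries 2 and 3, which were the highest wildtype libraries at 34.5 and 29.4 CPM. Summed fibroblast markers (8 of 8 measured, Col1a1, Dcn and Lum among them) ran from 56.0 to 84.9 CPM in APPko and from 39.8 to 111 CPM in wildtype. The smallest p among them belonged to Ogn and Slc6a13 (edgeR adjusted p = 0.40 and 0.48). None of these markers passed the test and none was at 0. None had an unadjusted edgeR p under 0.05, against 20.4% of all tested genes. Their part in the Pdgfra counts was not tested.

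Cspg4 encodes the NG2 proteoglycan on the surface of precursors and pericytes. It lay between 3.15 and 5.85 CPM in APPko, with a median of 4.199 CPM, and between 3.76 and 6.27 CPM in wildtype, with a median of 4.53 CPM. 3 of 8 APPko libraries lay below every wildtype library, and the log2 change was -0.16 (SE 0.18, 95% interval -0.54 to 0.22, edgeR adjusted p = 0.67). Without wildtype libraries 2 and 3 it was -0.28 (edgeR adjusted p = 0.63). The 8 pericyte markers, all measured and none at 0, summed to 79.95 to 144 CPM in APPko and 99.0 to 186 CPM in wildtype, most of it from Rgs5. The median log2 change of the 8 was 0.41, positive in 7 and negative in Rgs5. Pdgfrb had 7.23 ± 1.24 CPM in APPko and 4.37 ± 1.77 CPM in wildtype (SD, n = 8 and 6), the reverse order of Rgs5 (92.8 ± 17.5 and 122 ± 37.1 CPM). Neither passed edgeR's test (adjusted p = 0.069 and 0.18). DESeq2 called Pdgfrb, and 8.13% of all tested genes. The part of the pericyte markers in the Cspg4 counts was not tested.

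None of the 3 lineage transcription factors passed the test. Olig2 ranged from 16.6 to 26.8 CPM in APPko (median 20.1 CPM) and from 13.2 to 30.8 CPM in wildtype (median 20.1 CPM). Its log2 change of -0.03 had a 95% interval of -0.35 to 0.30, that is, from 0.78-fold to 1.23-fold (edgeR adjusted p = 0.96). Olig1 ranged from 28.4 to 50.8 CPM in APPko (median 38.3 CPM) and from 23.7 to 52.6 CPM in wildtype (median 34.1 CPM), a log2 change of 0.03 with an interval of -0.34 to 0.40 (edgeR adjusted p = 0.95). In both genes every APPko library lay inside the wildtype range. Sox10, which directs the myelin genes, ranged from 5.70 to 9.85 CPM in APPko (median 7.60 CPM) and from 3.95 to 9.35 CPM in wildtype (median 6.23 CPM). 7 of 8 APPko libraries were above the wildtype median and 1 was above every wildtype library, but the log2 change of 0.26 (SE 0.20, 95% interval -0.16 to 0.67) did not pass (edgeR adjusted p = 0.50). Wildtype libraries 2 and 3 held the lowest Sox10 values, 3.95 CPM each. Without them its log2 change was 0.00.

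Gpr17, a G protein-coupled receptor of committed precursors, showed the widest wildtype spread of the 8. It ran from 2.83 to 5.55 CPM in APPko (median 3.68 CPM) and from 1.93 to 6.78 CPM in wildtype (median 3.60 CPM), with SDs of 23.3% and 48.2% of the mean. The log2 change was -0.05 (SE 0.25, 95% interval -0.58 to 0.48, edgeR adjusted p = 0.95), so a change of up to about 1.40-fold higher or a fall to 0.67-fold lies inside the interval. Wildtype libraries 2 and 3 were the lowest wildtype libraries, at 2.53 and 1.93 CPM, and without them the log2 change was -0.34 (edgeR adjusted p = 0.58). Gpr17 shares 3.6% of its exon length with Lims2 on the opposite strand.

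Bcas1, a cytoplasmic protein of premyelinating and early myelinating oligodendrocytes, had the largest fitted difference of the 8. It ran from 12.8 to 24.3 CPM in APPko (median 14.9 CPM) and from 10.5 to 36.7 CPM in wildtype (median 20.5 CPM). 7 of 8 APPko libraries lay below the wildtype median, yet none below the lowest wildtype library, number 4. The log2 change was -0.48 (SE 0.21, 95% interval -0.92 to -0.04, a 1.39-fold lower level), with an unadjusted edgeR p of 0.034 and an adjusted p of 0.20. The value depended on single wildtype libraries. It was -0.26 (edgeR adjusted p = 0.44) without wildtype library 1, the highest, and -0.63 without wildtype library 4, where Bcas1 passed (edgeR adjusted p = 0.043, with 6.36% of all tested genes called).

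**Figure D2:**
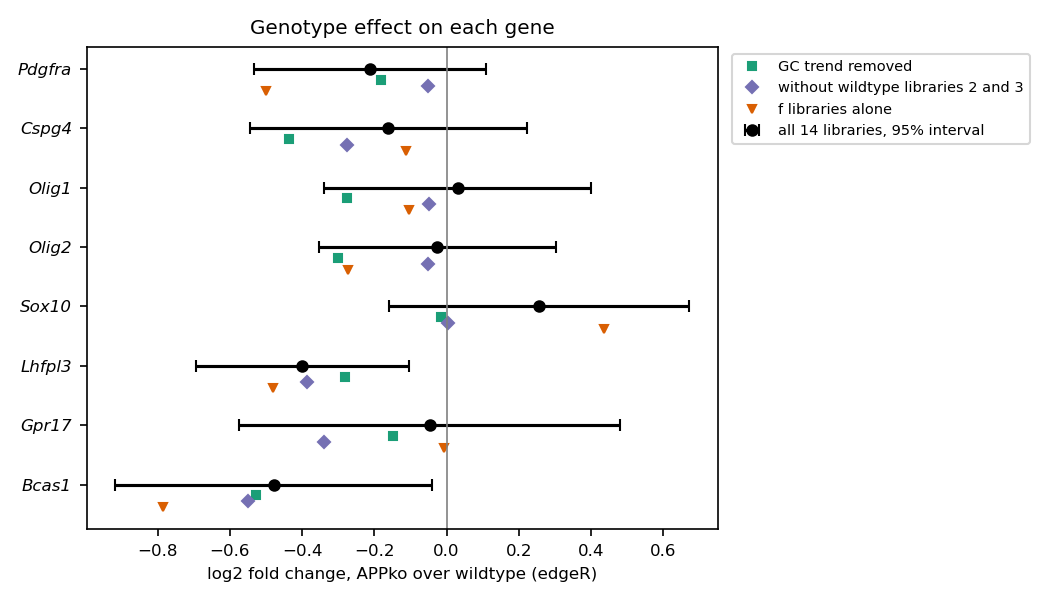
Fitted log2 fold change of APPko over wildtype for each gene (black, with 95% interval, edgeR, 14 libraries) and the same value after 3 other treatments of the data. The intervals of Lhfpl3 and Bcas1 lie below 0 before adjustment, and removing a GC trend moves Cspg4, Olig1, Olig2 and Sox10 to lower values.

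Among f libraries alone (7 APPko, 3 wildtype), Bcas1 and Pdgfra fell in APPko, with log2 changes of -0.79 and -0.50 (edgeR adjusted p = 0.011 and 0.044), where 15.6% of all tested genes were called. Bcas1 then lay between 12.8 and 16.7 CPM in APPko against 18.1 to 36.7 CPM in wildtype. The share of all tested genes whose ranges are apart in this small subset was not counted, so the gap is not a result about Bcas1. The only APPko m library, number 8, had 24.3 CPM of Bcas1 and 33.5 CPM of Pdgfra, against 10.5 to 27.4 CPM and 21.9 to 24.9 CPM in the 3 m wildtype libraries. With 1 APPko m library, a difference of the genotype effect between m and f libraries rests on that culture, and the suffix and that culture cannot be told apart. 2 of the 3 f wildtype libraries are numbers 2 and 3, so genotype and the libraries that stand apart cannot be told apart in this subset. Bcas1 was highest in the other f wildtype library, number 1 (36.7 CPM, against 21.4 and 18.1 CPM in libraries 2 and 3). Pdgfra was lowest in library 1 (27.2 CPM, against 34.5 and 29.4 CPM in libraries 2 and 3).

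Ratios within a library do not depend on how libraries are scaled, so 3 were compared. Gpr17 and Bcas1 over Pdgfra ask whether stages of the lineage shifted against each other, and Olig1 over Olig2 compares neighbouring genes. A GC trend does not cancel in a ratio and was not removed here. The ratio of Gpr17 to Pdgfra counts, committed against earlier cells, ran from 0.124 to 0.227 in APPko (median 0.172) and from 0.0656 to 0.281 in wildtype (median 0.156). The log2 difference was 0.29 (two-sided exact permutation p = 0.39, adjusted over 3 ratios 0.59). Wildtype libraries 2 and 3 lay lowest, at 0.0731 and 0.0656, and without them the difference was -0.23. Bcas1 over Pdgfra ran from 0.534 to 0.834 in APPko and from 0.421 to 1.35 in wildtype, with a log2 difference of -0.18 (exact permutation p = 0.47, adjusted 0.59). Olig1 over Olig2 ran from 1.68 to 2.26 in APPko and from 1.59 to 2.28 in wildtype, with a log2 difference of 0.05 (exact permutation p = 0.59, adjusted 0.59). The ranges overlapped in all 3 ratios.

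**Figure D3:**
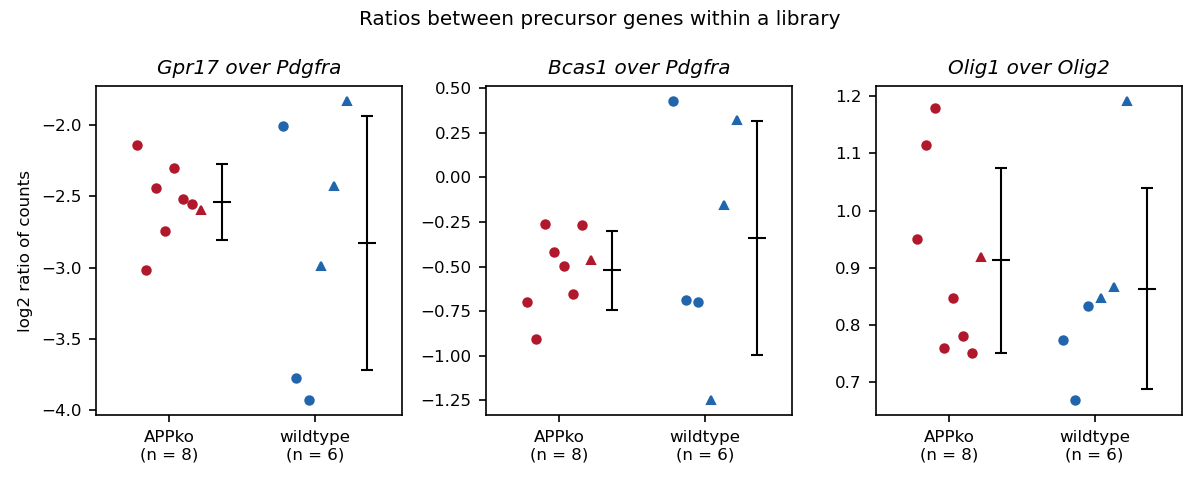
Log2 ratio of the counts of Gpr17 over Pdgfra, Bcas1 over Pdgfra and Olig1 over Olig2 (y axes) in each library, APPko left and wildtype right; circles are f and triangles m libraries, bars are mean ± SD (n = 8 and 6). The first 2 ratios spread more widely in wildtype (SD 0.89 and 0.66) than in APPko (SD 0.27 and 0.22).

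The genes varied together from culture to culture, and whether other sets of genes do so to a like degree was not tested. After each genotype's mean was subtracted from log2 CPM, 26 of 28 pairs had a positive Pearson correlation over the 14 libraries, with a median of 0.56. In 9 pairs Pearson's r had an adjusted permutation p under 0.05 over the 28 pairs, and in 6 both Pearson's r and Spearman's rho did. The closest were Olig2 and Bcas1, with r of 0.95 (permutation p = 2e-05, adjusted 0.00019) and rho of 0.90 (permutation p = 0.00022, adjusted 0.0015). Without the 2 libraries farthest from the median of Olig2, r was 0.86, and it was 0.86 in APPko alone, 0.98 in wildtype alone and 0.91 in f libraries. Olig1 and Olig2 had r of 0.90 and rho of 0.97 (both permutation p = 1e-05, the smallest that 100000 permutations can give, adjusted 0.00019 and 0.00028), r of 0.90 without the 2 farthest libraries, and 0.88 in APPko, 0.92 in wildtype and 0.86 in f libraries. Cspg4 and Sox10 had r of 0.77 and rho of 0.85 (permutation p = 2e-05 and 6e-05, adjusted 0.00019 and 0.00084), and r of 0.77 without the 2 farthest.

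For Pdgfra the correlations differed with the libraries used. It correlated with Lhfpl3, with r of 0.68 (permutation p = 0.014, adjusted 0.042) and rho of 0.64 (permutation p = 0.021, adjusted 0.052), and r dropped to 0.48 without APPko libraries 2 and 8. With Olig2 its r was 0.49 over all libraries (permutation p = 0.061, adjusted 0.11) and its rho 0.49 (permutation p = 0.088, adjusted 0.12), with r of 0.31 without APPko libraries 2 and 8, 0.91 in APPko alone and 0.16 in wildtype alone. With Olig1 r was 0.40 over all libraries (permutation p = 0.16, adjusted 0.22) and rho 0.37 (permutation p = 0.21, adjusted 0.26), with r of 0.11 without APPko libraries 2 and 8, 0.84 in APPko alone and -0.16 in wildtype alone. These differences between genotypes were not tested. With Sox10 the r of Pdgfra was -0.20 (permutation p = 0.47, adjusted 0.49) and its rho -0.16 (permutation p = 0.59, adjusted 0.64), and r was -0.49 without the 2 farthest libraries and 0.12 without wildtype libraries 2 and 3, in which Pdgfra was high and Sox10 low. Sox10 and Gpr17 had r of 0.78 over all libraries (permutation p = 0.013, adjusted 0.042) and rho of 0.71 (permutation p = 0.032, adjusted 0.065), with r of 0.63 without the 2 farthest. Their r was 0.98 in the 6 wildtype libraries and 0.04 in the 8 APPko libraries, and the difference was not tested. The values of a pair share a library's scaling and its GC trend. With the GC trend removed, r was 0.80 for Olig2 and Bcas1, 0.91 for Olig1 and Olig2, 0.66 for Cspg4 and Sox10, and for Pdgfra 0.72 with Olig2, 0.75 with Olig1, 0.67 with Cspg4, 0.64 with Lhfpl3 and 0.32 with Sox10. For Gpr17 it fell from 0.78 to 0.61 with Sox10, from 0.71 to 0.34 with Olig1 and from 0.62 to 0.27 with Cspg4. Of the other pairs with an adjusted p under 0.05, it was 0.79 for Olig1 and Bcas1 and 0.81 for Cspg4 and Olig1.

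**Figure D4:**
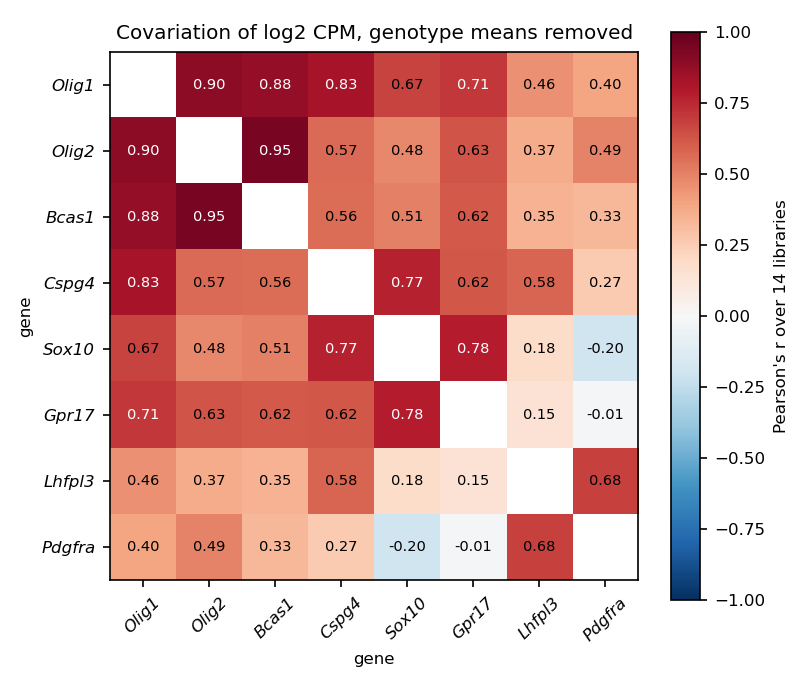
Pearson's r between the log2 CPM of each pair of genes over 14 libraries, after subtracting genotype means (colour scale from -1 to 1). Olig1, Olig2 and Bcas1 form the block of highest values, from 0.88 to 0.95, and the highest value of Pdgfra is 0.68, with Lhfpl3.

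The genes outside the 8 that followed their mean level most closely, by Pearson's r over the 14 libraries with genotype means removed, were Sox12 (0.90), Pink1 (0.89), Slc39a8 (0.89), Gsn (0.88) and Kif5a (0.87). They are the top 5 of all tested genes, so these values describe a selection. None of the 5 passed the genotype test. The mean level of the 8 was highest in wildtype library 1 and APPko library 8 and lowest in wildtype library 4 and APPko library 7.

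Olig1 and Olig2 sit next to each other on chromosome 16, Olig2 at 91225457 to 91228677 and Olig1 at 91269772 to 91271933 (GRCm38, both on the + strand). Olig2 begins 6.05 Mb and Olig1 6.10 Mb from App (84949685 to 85173766). The strain of origin of the DNA around the APPko allele was not tested. Within 10 Mb of App 10 of 123 tested genes were called (8.13%), against 2.35% of all tested genes. 4 of the 35 tested genes between App and Olig2 were called: Map3k7cl was higher, and Tiam1, Gm49708 and Gm36001 were lower, the last 5.37 Mb from App. None of the 20 tested protein-coding genes within 0.5 Mb of Olig1 or Olig2 was called. The lowest unadjusted p belonged to Paxbp1, with 22.9 ± 2.77 CPM in APPko and 30.5 ± 7.71 CPM in wildtype (SD, n = 8 and 6, edgeR adjusted p = 0.12). The interferon receptor genes Ifnar1 (27.5 ± 1.87 and 22.9 ± 2.51 CPM, edgeR adjusted p = 0.12) and Ifnar2 (16.4 ± 1.98 and 13.5 ± 2.37 CPM, edgeR adjusted p = 0.20) also lie there. Beyond Olig1, up to 10 Mb from App, 1 of 39 tested genes was called.

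**Figure D5:**
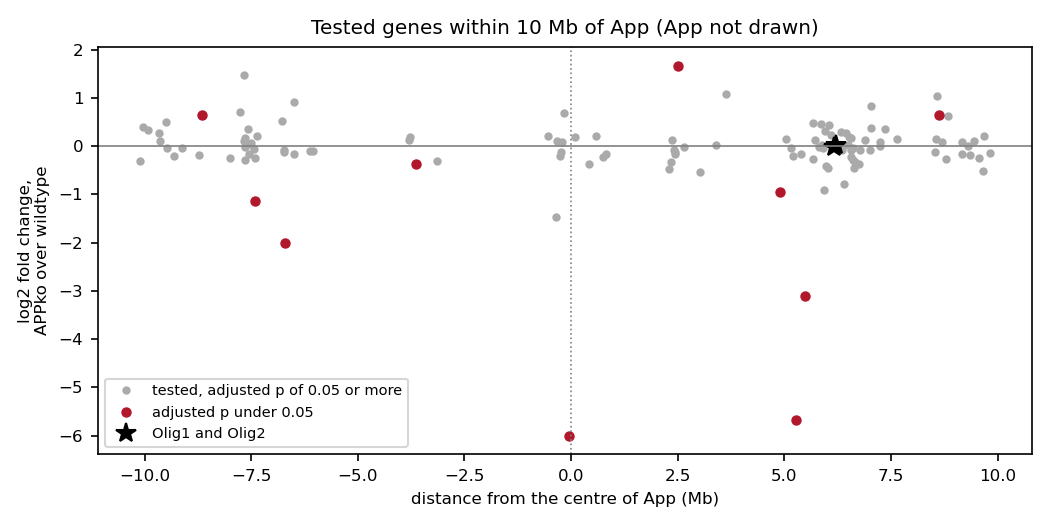
Log2 fold change of APPko over wildtype (y axis) against distance from the centre of App in Mb (x axis) for the tested genes within 10 Mb, App itself left out; red points had an edgeR adjusted p under 0.05 and stars are Olig1 and Olig2. The stars lie at 0.03 and -0.03, amid neighbours that were not called.

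Other genes of the lineage were read from lists. Of 20 other precursor-enriched genes, such as Vcan, Tnr and C1ql1, none passed, with a median log2 change of 0.18. 6 had an unadjusted edgeR p under 0.05, against 20.4% of all tested genes. Those with the smallest p were the receptor phosphatase gene Ptprz1 (378 ± 44.97 CPM in APPko, 506 ± 84.9 CPM in wildtype, edgeR adjusted p = 0.058) and the orphan receptor gene Gpr37l1 (137 ± 17.6 and 90.1 ± 28.7 CPM, edgeR adjusted p = 0.068). Both are also known from astrocytes. DESeq2 called 5 of these 20, 3 higher and 2 lower, and 8.13% of all tested genes. edgeR called 2.35% of all tested genes, and of 15 tested genes of committed and newly formed oligodendrocytes 1 fell. This was Tcf7l2, a Wnt pathway transcription factor, at 22.3 ± 4.32 CPM in APPko and 38.004 ± 14.9 CPM in wildtype (log2 change -0.77, SE 0.20, edgeR adjusted p = 0.047). It passed in 3 of 14 fits that left out a library and had a log2 change of -0.38 (edgeR adjusted p = 0.36) without wildtype libraries 2 and 3. With the GC trend removed Tcf7l2 was at -0.71 and did not pass (edgeR adjusted p = 0.065). Of 19 tested myelin genes none passed, with a median log2 change of 0.08. An unadjusted edgeR p under 0.05 was found in 2 of them and in 20.4% of all tested genes. Mbp, the myelin basic protein gene, had 163 ± 29.6 CPM in APPko and 148 ± 86.8 CPM in wildtype (SD, n = 8 and 6), and the smallest p belonged to Enpp2, which encodes autotaxin (45.5 ± 9.60 and 67.0 ± 21.5 CPM, edgeR adjusted p = 0.089), and Gjb1 (connexin 32, adjusted p = 0.20).

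A further 18 genes were listed as transcription factors and chromatin remodellers that work with Olig2 or Sox10. Whether they do so in these cultures, and which cells carried them, was not tested. Of the 18, 2 fell and none rose, where 2.35% of all tested genes were called. The 2 were Tcf7l2 again, and the zinc finger gene Zfp536, at 58.0 ± 7.35 CPM in APPko and 84.2 ± 15.3 CPM in wildtype (log2 change -0.54, SE 0.12, edgeR adjusted p = 0.030). Zfp536 passed in 6 of 14 fits without a library and with the GC trend removed (edgeR adjusted p = 0.016, with 0.909% of all tested genes called), and not without wildtype libraries 2 and 3 (-0.44, edgeR adjusted p = 0.14). Of 13 tested inhibitors of precursor differentiation, such as Id2, Hes5 and Lingo1, none passed. 4 had an unadjusted edgeR p under 0.05, against 20.4% of all tested genes. DESeq2 called 3 of them, and 8.13% of all tested genes. The Nogo receptor gene Rtn4r had 12.4 ± 2.83 CPM in APPko and 6.79 ± 3.03 CPM in wildtype (edgeR adjusted p = 0.056), and Tnfrsf21 had 50.0 ± 6.54 and 38.3 ± 6.33 CPM (edgeR adjusted p = 0.075).

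Of 18 genes for platelet-derived growth factors, their second receptor and other growth signals of precursors, 1 rose and 1 fell. Over all tested genes 0.944% were called higher and 1.41% lower. The ligand gene Pdgfb rose to 14.2 ± 3.51 CPM in APPko, against 8.50 ± 2.24 CPM in wildtype (log2 change 0.74, SE 0.18, edgeR adjusted p = 0.044). Pik3r1, the regulatory subunit of phosphoinositide 3-kinase, fell to 73.3 ± 14.1 CPM in APPko, against 102 ± 10.6 CPM in wildtype (log2 change -0.47, SE 0.12, edgeR adjusted p = 0.047). Pdgfb passed in 3 and Pik3r1 in 2 of 14 fits without a library. Neither passed with the GC trend removed, at 0.46 for Pdgfb and -0.40 for Pik3r1 (edgeR adjusted p = 0.12 and 0.10). Without wildtype libraries 2 and 3 the log2 changes were 0.55 for Pdgfb and -0.51 for Pik3r1 (edgeR adjusted p = 0.20 and 0.10), where 0.147% of all tested genes were called.

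Of 8 cell cycle genes 2 were called, Top2a and Mki67, where 2.35% of all tested genes were. Both were lower in APPko (9.36 ± 2.49 against 16.003 ± 4.14 CPM, and 8.84 ± 1.72 against 13.5 ± 2.73 CPM, edgeR adjusted p = 0.041 and 0.044). The summed level of the 8 was highest in wildtype libraries 2 and 3 (239 and 228 CPM, against 117 to 174 CPM in the other 12). Dividing precursors are one of several cell types that use these genes, and which cells carried them was not tested. Without those 2 libraries the log2 changes were -0.61 for Top2a and -0.49 for Mki67 (edgeR adjusted p = 0.23 and 0.22), against -0.77 and -0.61 with them. Each passed in 4 of 14 fits without a library. Neither passed with the GC trend removed, at -0.67 for Top2a and -0.55 for Mki67 (edgeR adjusted p = 0.067 and 0.065). None of the 8 astrocyte, 8 microglia and 8 neuron markers passed. An unadjusted edgeR p under 0.05 was found in 2, 2 and 4 of them, against 20.4% of all tested genes. DESeq2 called 1, 1 and 2 of them, and 8.13% of all tested genes. The astrocyte markers, led by Gja1 and Gfap (edgeR adjusted p = 0.10 and 0.21), summed to 5464 to 8220 CPM in APPko and 6177 to 8538 CPM in wildtype. Gja1 was lower in APPko (267 ± 49.3 against 409 ± 189 CPM) and Gfap higher (1917 ± 280 against 1581 ± 216 CPM). The microglia markers, led by C1qa and Itgam (edgeR adjusted p = 0.11 and 0.17), summed to 325 to 558 CPM in APPko and 298 to 465 CPM in wildtype. C1qa was higher in APPko (70.3 ± 13.4 against 30.5 ± 23.1 CPM) and Itgam lower (14.8 ± 3.23 against 20.9 ± 7.71 CPM). The neuron markers, led by Gad1 and Tubb3 (edgeR adjusted p = 0.11 and 0.12), summed to 3497 to 4484 CPM in APPko and 3565 to 5988 CPM in wildtype. Gad1 (257 ± 37.3 against 348 ± 102 CPM) and Tubb3 (34.1 ± 5.38 against 43.0 ± 6.11 CPM) were both lower in APPko.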

How the data were processed

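Polyadenylated RNA of 14 dentate gyri (8 APPko, 6 wildtype) was measured by paired-end RNA sequencing. The authors deposited whole-number counts, with a table for each library and a row for each gene symbol. The submitters' processing notes name cutadapt 3.5, STAR 2.7.8a, featureCounts 2.0.1 and the build GRCm38 (mm10). How strand, multi-mapping reads and duplicates were handled is not given in the sources used here. 73.5 to 80.4% of counts from 1 to 200 were even, the pattern of mates counted singly, so about 2 counts can stand for 1 fragment. Without molecular identifiers, reads are not independent molecules.

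Genotype came from sample titles. No pair of libraries within a genotype agreed within sampling noise (chi-square per degree of freedom between 8.78 and 111 in 43 pairs). Genes kept by edgeR's filter were scaled by TMM, fitted with glmQLFit (robust, no covariate) and adjusted by Benjamini-Hochberg over all 22150. SE is the log2 change divided by the square root of F. Exon lengths, positions and overlaps came from the annotation deposited by the authors (GENCODE M25), whose gene names include all 55291 row names, and GC content from GENCODE M21 transcripts of the same build (97.9% of tested genes). Fits used edgeR 4.0.16 in R 4.3.3, with DESeq2 1.42.0 and limma 3.58.1 as alternatives, and permutations used scipy 1.17.1. On simulated counts (21323 genes) 29.9% of genes changed 1.5-fold, 74.6% changed 2-fold and 100% changed 4-fold were called.

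Members, lists and tests were chosen with earlier results of these data known. Named were the 8 members, App, the called genes of each list (or, with none called, the 2 with the smallest p), the tested protein-coding neighbours of Olig1 and Olig2, and the 5 genes most like the members. Some genes were named outside this rule, after their values were seen, as examples of a list or of a window. Alternatives were other scalings, filters and tools, thinning, the suffix as covariate, f libraries alone, no wildtype libraries 2 and 3, a GC trend removed (lowess span 0.3), the replicate number as a block and each library left out. Counts divided by 2, and APPko 7 and 8 left out without the block, were added after the data were seen.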

Additional observations from a re-analysis of the deposited data

Results flagged for a closer look

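22 sets of values (8 genes and 3 ratios, each in APPko and in wildtype) were searched for a library far from the rest of its genotype, a search that chance alone flags in about 1 in 20 sets. In APPko, Bcas1 in library 8, the only m library of that genotype, stood at 24.25 CPM, above the other 7 at 12.8 to 16.7 CPM. Without it the log2 change of Bcas1 was -0.58 (edgeR adjusted p = 0.12). In wildtype, the ratio of Olig1 to Olig2 counts in library 6 was 2.284, against 1.59 to 1.82 in the other 5, and without it the log2 difference of APPko from wildtype in this ratio was 0.12 (exact permutation p = 0.17, adjusted 0.26).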

How the results depend on the processing

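The number of genes called over the transcriptome was 521 and changed by over 1.5 times in several settings, to 1801 with DESeq2, 1446 with the suffix as covariate, 3672 in f libraries, 35 without wildtype libraries 2 and 3 and 197 with the GC trend removed. It ran from 38 to 1436 when single libraries were left out. The number of the 8 genes called was 0 in all of these except f libraries alone, with 2 (Pdgfra at -0.50 and Bcas1 at -0.79), and ran from 0 to 1 with single libraries left out (Bcas1 without wildtype library 4, at -0.63). The cause was not tested.

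Signs changed in several settings. Olig1 was at -0.0635 with limma's voom, -0.10 in f libraries, -0.0492 without wildtype libraries 2 and 3 and -0.28 with the GC trend removed, which also put Sox10 at -0.0153 and moved Cspg4 to -0.44 and Olig2 to -0.30. Without an expression filter Olig2 was at 0.0232 and Gpr17 at 0.0023, and Gpr17 was at 0.0884 with the suffix as covariate. Without wildtype libraries 2 and 3 the log2 difference was -0.23 in Gpr17 over Pdgfra and -0.007 in Olig1 over Olig2.

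Leaving out single libraries gave -0.30 to -0.12 for Pdgfra, -0.23 to -0.07 for Cspg4, -0.0752 to 0.16 for Olig1, -0.13 to 0.14 for Olig2, 0.15 to 0.40 for Sox10, -0.45 to -0.32 for Lhfpl3, -0.18 to 0.17 for Gpr17 and -0.63 to -0.26 for Bcas1, and 0.07 to 0.49, -0.36 to -0.03 and 0.01 to 0.12 for the ratios of Gpr17 and Bcas1 to Pdgfra and of Olig1 to Olig2. With the replicate number as a block (6 pairs, APPko 7 and 8 left out) 20 genes were called, against 27 in the same 12 libraries without it, none of the 8 passed, and Gpr17 was at 0.0353. Same-numbered libraries deviated together with correlations of -0.34 to 0.19, and 1 of 6 wildtype libraries correlated best with its own number, so the numbers were not taken to pair cultures. Gpr17 and Cspg4, at 40 to 150 and 78 to 144 counts, were the least precisely counted.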

Other observations

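Which genotype had the wider spread between cultures varied by gene. As a share of the mean, the SD in APPko and wildtype was 15.8% and 37.3% for Sox10, 23.3% and 48.2% for Gpr17, 23.0% and 40.0% for Bcas1, 16.3% and 28.5% for Olig2, and 21.9% and 30.4% for Olig1. Pdgfra (24.8% and 18.3%), Cspg4 (25.3% and 19.9%) and Lhfpl3 (23.7% and 5.55%) ran the other way. These differences in spread were not tested. Wildtype spread includes libraries 2 and 3, and the share of f and m libraries differed between the genotypes. Libraries 2 and 3 held the lowest wildtype values of Sox10 and Gpr17, but neither end of the wildtype range of Bcas1, Olig1 or Olig2. Summed over the 8 genes, levels ran from 105 to 180 CPM in APPko and from 114 to 196 CPM in wildtype.

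Transcripts opposite the other genes were counted at different levels. Over all 14 libraries Gm15966, opposite Olig1, had 94 counts and the transcripts opposite Bcas1, Bcas1os1 and Bcas1os2, had 50 and 134. Lims2, opposite Gpr17 and also on the list of precursor-enriched genes, had 598 counts, with 1.94 ± 0.54 CPM in APPko and 1.45 ± 0.52 CPM in wildtype, beside 3.95 ± 0.92 and 4.10 ± 1.98 CPM of Gpr17 itself (SD, n = 8 and 6).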
